A study of Homo sapiens with 12 samples.

Results

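The genes described here carry peptides from the cytosol to the cell surface on MHC class I molecules: the heavy chains HLA-B, HLA-C and HLA-E, the light chain B2M, the peptide transporter subunits TAP1 and TAP2, and the immunoproteasome subunits PSMB8, PSMB9 and PSMB10. They were taken by gene symbol from 3 comparison tables, and all 9 had a row in each table, out of 27146 genes found in at least 1 table. The RNA came from MDA-MB-231, a widely used human line of triple-negative breast cancer cells. All cells were exposed for 48 h, either to DMSO alone (Ctrl) or to SAHA, compound 1 or a6 at 2.5 µM. SAHA is vorinostat, a histone deacetylase (HDAC) inhibitor. By the design text, SAHA and compound 1 each hit 1 target, whereas a6 hits a pair of targets, HDAC and the G-quadruplex (G4), a fold of guanine-rich DNA or RNA. There were 3 libraries in each of the 4 groups, all from this 1 cell line.

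In this pathway the proteasome cuts cytosolic proteins into peptides, TAP1 and TAP2 pump them into the endoplasmic reticulum, and there they are loaded onto a heavy chain paired with B2M. PSMB8, PSMB9 and PSMB10 are the interferon-inducible catalytic subunits that replace PSMB5, PSMB6 and PSMB7 of the constitutive proteasome. HLA-B and HLA-C present peptides to cytotoxic T cells, and HLA-E is best known as a ligand of natural killer cell receptors. NLRC5 is the main transactivator of class I genes, and interferon acts on many of them through IRF1.

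Class I promoters are known for elements read by interferon regulatory factors, NF-kB and the Y box factor NF-Y. They are shown so that PSMB10, the gene that passed the test below, can be read beside those that did not. RefSeq windows of 250 bases before each start, on GRCh38.p14, were matched for 8 of the 9 genes (10 windows); HLA-E was not matched. In the stretches below, written 5′ to 3′ on the gene's strand, capitals mark the match. The first 4 hold an interferon-response type motif (GAAA, any 2 bases, then GAAA, on either strand), which 4 of the 8 genes had and 3.02% of all 35114 RefSeq windows have.
PSMB10, chr16:67936852-67936881, minus strand: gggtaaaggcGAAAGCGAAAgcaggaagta
TAP2, chr6:32838778-32838807, minus strand: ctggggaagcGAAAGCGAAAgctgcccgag
TAP1, chr6:32853813-32853842, minus strand, motif on the opposite strand: ccgctttcgaTTTCGCTTTCccctaaatgg
B2M, chr15:44711369-44711398, plus strand: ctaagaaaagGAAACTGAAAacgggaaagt
The next 3 hold an NF-kB type motif (GGG, any 2 bases, TT, any 1 base, then CC, on either strand), present in 3 of the 8 genes and in 5.07% of all windows.
HLA-B, chr6:31357337-31357366, minus strand: gcgcagcgttGGGGATTCCCcactcccctg
TAP1, chr6:32853757-32853786, minus strand: gcctgttcctGGGACTTTCCgagagccccg
B2M, chr15:44711382-44711411, plus strand, motif on the opposite strand: actgaaaacgGGAAAGTCCCtctctctaac
The last 2 hold the Y box, CCAATCAG on either strand, present in 3 of the 8 genes (HLA-B, HLA-C and B2M) and in 3.81% of all windows.
HLA-B, chr6:31357217-31357246, minus strand: atctagagaagCCAATCAGcgtcgccgcgg
HLA-C, chr6:31272130-31272159, minus strand: ttctagagaagCCAATCAGcgtctccgcag

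The matched 10 letters, GAAAGCGAAA, were identical in PSMB10, TAP2 and, read on the opposite strand, TAP1. In B2M and in TAP1 a second interferon-type match overlapped the one shown, and in B2M the NF-kB type match lay just downstream. A motif of the interferon-gamma activated type, TTCNNNGAA, was found in a window of TAP1 and a window of PSMB8, against 6.57% of all windows. A G4 pattern (4 runs of GGG with loops of 1 to 7 bases, either strand) was found in TAP1, TAP2 and PSMB8, against 23.5% of all windows. None of the 5 motifs was found in the window of PSMB9, and PSMB10 had the interferon-type match alone. The PSMB9 window, chromosome 6, 32853942 to 32854191, begins beyond the TAP1 matches shown above, so a longer window would have held them. These matches describe letters in a window and say nothing of binding in these cells.

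Over all genes, the deposited DESeq2 Wald tests covered 18534 genes with SAHA, 27126 with compound 1 and 15255 with a6. Totals per library were not analysed here, so the depth of a library is unknown. Values per library were not analysed here either, so each level below is a group mean without an SD, and whether the libraries of the groups overlap cannot be told. The 10 markers of MDA-MB-231 were all measured. VIM, the mesenchymal filament vimentin, reached 21149 normalized counts on average in Ctrl, computed from the authors' deposited table. ESR1 and PGR, the hormone receptors absent from triple-negative cells, had 0.660 and 0.337 in Ctrl, computed from the compound 1 table, the one that lists them. Of the other luminal markers, ERBB2 was at 2103, EPCAM at 172 and GATA3 at 75.8 in Ctrl, computed from the authors' deposited SAHA table, so not all luminal markers were near 0.

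Most of the 9 genes were well expressed in untreated cells, and PSMB10 was far below the rest. Per kilobase of the principal transcript, the mean normalized count in Ctrl, computed from the authors' deposited SAHA table, was 4955 for HLA-B, 3628 for B2M, 2655 for HLA-E and 2086 for HLA-C. On the same scale the subunits followed, with 1033 for PSMB8, 882 for TAP1, 645 for PSMB9, 262 for TAP2 and 87.0 for PSMB10. The order of the 9 levels was identical in Ctrl and in all 3 treated groups. Whether neighbours in that order differ beyond the spread of libraries was not tested. For each gene, the Ctrl level computed from the 3 tables differed by 2.16% to 2.49% between the highest and the lowest.

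**Figure D1:**
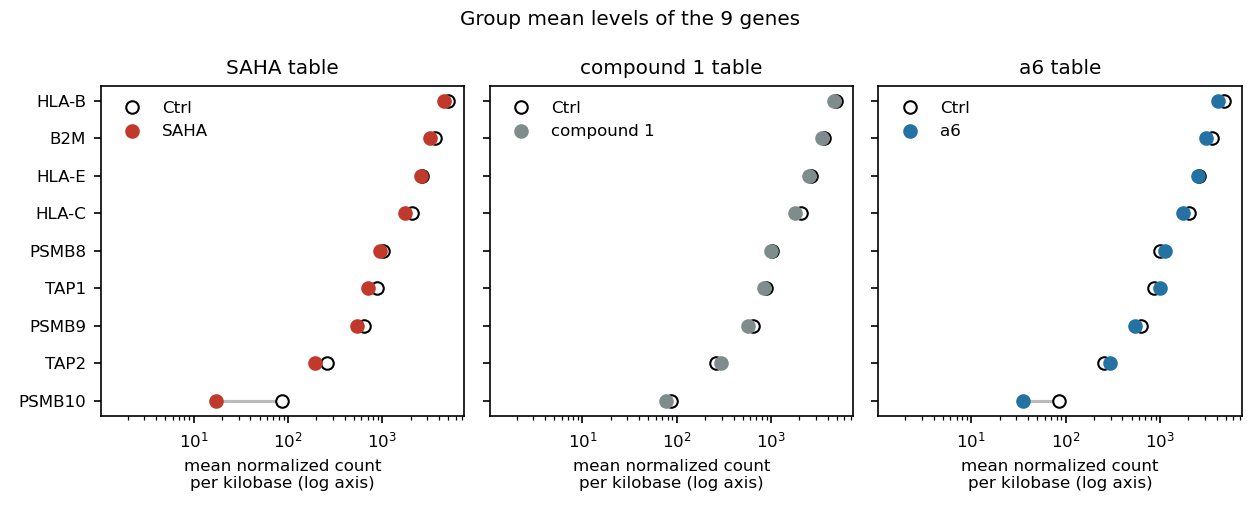
Mean normalized count per kilobase (log axis) of each gene in Ctrl (open circles) and with a compound (filled circles), computed from the table named above each panel; a line joins the pair, and there are no error bars because values are group means. PSMB10 is the lowest gene in every panel and has the longest line in the SAHA panel, from 87.0 to 17.2, and in the a6 panel.

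With SAHA, 1 of the 9 genes fell and 0 rose, against 7.55% of all genes called in either direction, 3.02% called lower and 4.53% called higher. The gene that fell was PSMB10, the trypsin-like subunit of the immunoproteasome. All 9 log2 fold changes were below 0, with a median of -0.25 against -0.01 over all genes, of which 50.7% were below 0. Over genes averaging at least 50 normalized counts the median was -0.06. HLA-E turned positive when changes were centred on the median or freed of a trend with GC content, and HLA-B under the latter. With compound 1, 0 genes rose or fell and 0 had an unadjusted p under 0.05 in the DESeq2 test, against 0% of all genes called and 0.199% with such an unadjusted p. With a6, 0 rose or fell, against 0.583% of all genes called, and 1, PSMB10, had an unadjusted p under 0.05, against 7.41% of all genes. With SAHA the same 1 gene had one, against 18.4% of all genes. Because these are bulk samples, fewer cells expressing a gene and less RNA per cell cannot be told apart.

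**Figure D2:**
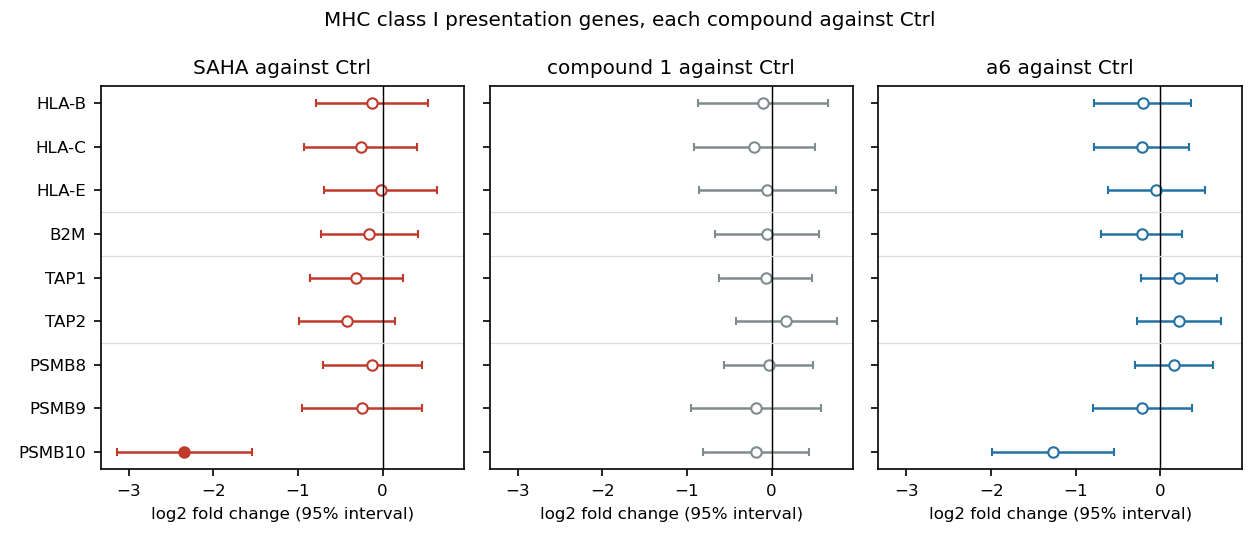
Log2 fold change of each gene against Ctrl in the authors' deposited tables, with 95% intervals from its standard error; filled points have an adjusted p under 0.05. PSMB10 with SAHA, at -2.34, is the only filled point, and the intervals of the other 8 genes all include 0.

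The classical heavy chains HLA-B and HLA-C, the most polymorphic genes of the set, did not pass the test in any comparison. HLA-B (chromosome 6, 31269491 to 31357188, minus strand, GRCh38) had mean normalized counts, computed from the authors' deposited tables, of 7665 in Ctrl and 7040 with SAHA, 7642 and 7141 with compound 1, and 7482 and 6462 with a6. In the authors' deposited tables its log2 fold change was -0.12 with SAHA, -0.10 with compound 1 and -0.21 with a6, with standard errors of 0.34, 0.39 and 0.29. HLA-C (chromosome 6, 31268749 to 31272130, minus strand) went from 3204 to 2678 with SAHA, from 3194 to 2775 with compound 1 and from 3127 to 2683 with a6. Its log2 fold changes in the authors' deposited tables were -0.26, -0.20 and -0.22, with standard errors of 0.34, 0.36 and 0.28. The 2 gene models overlap on the same strand and the genes are similar in sequence, so reads may have been shared between them, and their separate values are uncertain.

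HLA-E, the nonclassical heavy chain (chromosome 6, 30489467 to 30494205, plus strand), had the log2 fold change closest to 0 of the 9 genes with SAHA and with a6; with compound 1, PSMB8 and B2M were closer. Its log2 fold changes in the authors' deposited tables were -0.02 with SAHA, -0.05 with compound 1 and -0.05 with a6, and with SAHA the sign turned positive under centring and under removal of the GC trend. The mean normalized count was 6906 in Ctrl and 6792 with SAHA, computed from the authors' deposited table. B2M, the light chain all class I molecules share (chromosome 15, 44711487 to 44718877, plus strand), went from 6186 to 5545 with SAHA, from 6177 to 5965 with compound 1 and from 6043 to 5187 with a6. In the authors' deposited tables its log2 fold changes were -0.16, -0.05 and -0.22, with standard errors of 0.29, 0.31 and 0.24, and none passed the test.

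The transporter subunits had their lowest values with SAHA and their highest with a6, without passing the test in either. TAP1 (chromosome 6, 32845209 to 32853978, minus strand) went from 2610 to 2106 with SAHA, from 2603 to 2482 with compound 1 and from 2550 to 2972 with a6, as mean normalized counts computed from the authors' deposited tables. Its log2 fold changes in the authors' deposited tables were -0.31, -0.07 and 0.22, with standard errors of 0.28, 0.28 and 0.23. TAP2 (chromosome 6, 32821833 to 32838780, minus strand) went from 654 to 487 with SAHA, from 654 to 738 with compound 1 and from 641 to 746 with a6. Its log2 fold changes in the authors' deposited tables were -0.42, 0.17 and 0.22, with standard errors of 0.29, 0.30 and 0.25. The SAHA value of TAP2 had the smallest adjusted p of the 8 genes other than PSMB10, 0.482 in the DESeq2 Wald test.

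Of the immunoproteasome subunits, PSMB8 and PSMB9 lie beside TAP1 in the MHC region and PSMB10 lies on chromosome 16. PSMB8, the chymotrypsin-like subunit (chromosome 6, 32840717 to 32844703, minus strand), went from 1161 to 1068 with SAHA, from 1158 to 1130 with compound 1 and from 1134 to 1264 with a6. In the authors' deposited tables its log2 fold changes were -0.12, -0.04 and 0.16, with standard errors of 0.30, 0.27 and 0.24. PSMB9 (chromosome 6, 32844136 to 32859585, plus strand) went from 504 to 425 with SAHA, from 502 to 442 with compound 1 and from 492 to 424 with a6. Its log2 fold changes in the authors' deposited tables were -0.25, -0.19 and -0.22, with standard errors of 0.36, 0.39 and 0.30. The annotated model of PSMB9 overlaps those of TAP1 and PSMB8 on the opposite strand. The noncoding RNA PSMB8-AS1 overlaps TAP1 and PSMB8 on the opposite strand and PSMB9 on its own strand. Strand use in counting is unstated in the sources used here, so reads from the overlaps cannot be told apart and these values are uncertain.

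PSMB10 (chromosome 16, 67934502 to 67937087, minus strand) averaged 106 normalized counts in Ctrl and 20.9 with SAHA, computed from the authors' deposited table. It fell by 2.34 on the log2 scale in the authors' deposited table (standard error 0.41, 95% interval -3.14 to -1.55, DESeq2 Wald adjusted p = 1.14e-06). That is a 5.07-fold lower level, with an interval of 2.93 to 8.79. By p-value it ranked 119 of 18534 genes. With compound 1 the level was 106 in Ctrl and 93.1 in treated cells, and the authors' deposited table gives a log2 fold change of -0.18 (standard error 0.32, 95% interval -0.81 to 0.44). With a6 the level was 104 in Ctrl and 42.9 in treated cells. For a6 the authors' deposited table gives a log2 fold change of -1.27 (standard error 0.37, 95% interval -2.00 to -0.55), with an unadjusted p of 0.000572 and a DESeq2 Wald adjusted p of 0.0828, so it did not pass the threshold. PSMB10 stands in the authors' deposited lists of lower genes for SAHA and for a6, which take genes changed 2-fold or more with an unadjusted p under 0.05; for a6 that rule gives 1 gene of the 9 where the adjusted p gives 0. Of all genes, 3.29% are on that list for SAHA, 0.0737% for compound 1 and 1.63% for a6. None of the 9 genes is in the authors' deposited lists of G4-related genes. Those lists are given per compound and direction of change, so absence from them does not tell whether a gene has a G4.

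For the other 8 genes the intervals bound how large an undetected change could be. Across the 3 comparisons, all 24 of their 95% intervals on the log2 scale lay between -0.99 and 0.77, so each stayed inside a 2-fold change in either direction. These intervals are not adjusted for their number.

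Each pair of compounds was then compared at the same dose and time, through the difference of their log2 fold changes, over all genes of both tables. The 3 pairs share the Ctrl libraries, and the standard error used makes the test conservative. SAHA against compound 1 gave 1 of the 9 genes different, against 1.06% of all genes, and it was PSMB10; it was also the 1 gene with an unadjusted p under 0.05, against 7.26% of all genes. Its difference was -2.16 on the log2 scale (standard error 0.52, 95% interval -3.17 to -1.15, z test, Benjamini-Hochberg adjusted p = 0.00721), a 4.46-fold lower level with SAHA. Between a6 and SAHA, 0 of the 9 differed and 0 had an unadjusted p under 0.05 in the z test, against 0.256% of all genes called and 5.56% with such an unadjusted p. The PSMB10 difference, a6 minus SAHA, was 1.07 with an interval of -0.00319 to 2.14 and an unadjusted p of 0.0507 (Benjamini-Hochberg adjusted p = 0.900). A difference of 0 thus lay at the edge of the interval, whose standard error takes no account of the shared Ctrl. With an error correlation of 0.5, the z test gave this PSMB10 difference a Benjamini-Hochberg adjusted p of 0.105. Between a6 and compound 1, 0 of the 9 differed in the z test, against 0.0328% of all genes, and 1 had an unadjusted p under 0.05, against 1.46% of all genes. That gene was PSMB10, with a difference of -1.09, an interval of -2.05 to -0.13, an unadjusted p of 0.0262 and a Benjamini-Hochberg adjusted p of 1.00.

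**Figure D3:**
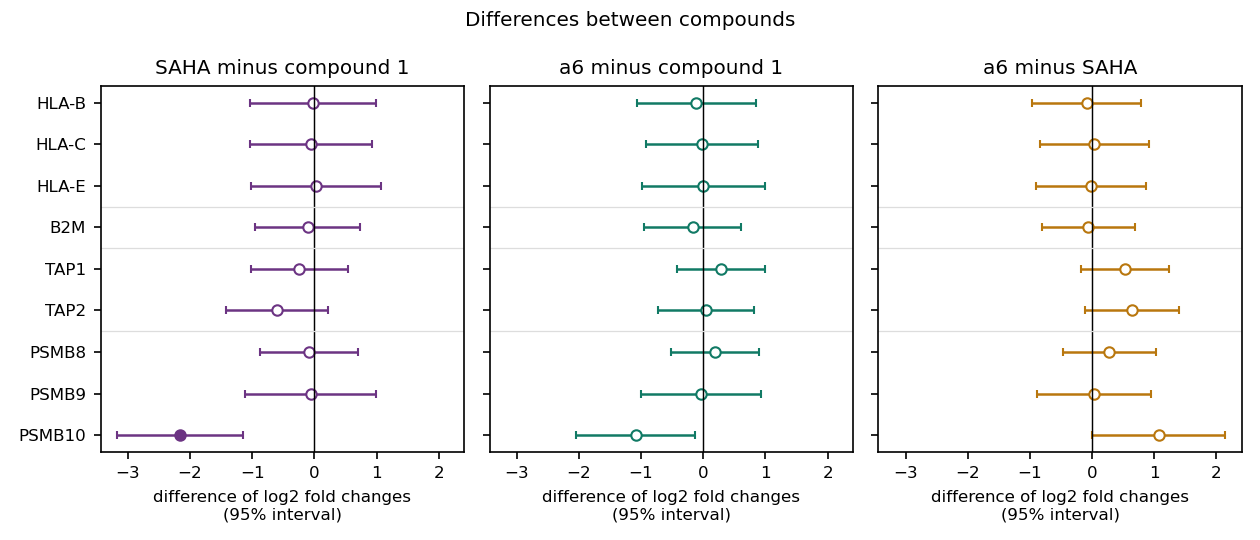
Difference between the log2 fold changes of 2 compounds for each gene, with 95% intervals; filled points have an adjusted p under 0.05. The only filled point is PSMB10 in SAHA minus compound 1, at -2.16, and its a6 minus SAHA interval starts at -0.00319.

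For the other 8 genes no difference between compounds passed the test. Their differences ranged from -0.60 to 0.03 for SAHA minus compound 1, with intervals reaching from -1.42 to 1.08. For a6 minus SAHA they ranged from -0.09 to 0.64, with intervals from -0.96 to 1.39, and the highest values were those of TAP2 and TAP1. For a6 minus compound 1 they ranged from -0.17 to 0.29, with intervals from -1.07 to 1.00. Changes of more than 2-fold between compounds therefore stay within some of these intervals. The bounds furthest from 0, -1.42 and 1.39, were those of TAP2.

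Each immunoproteasome subunit was set beside the constitutive subunit it replaces, per kilobase, as levels computed from the authors' deposited tables. In Ctrl, PSMB8 was at 52.6% of PSMB5, PSMB9 at 28.6% of PSMB6 and PSMB10 at 2.33% of PSMB7. With SAHA these shares were 67.3%, 36.3% and 0.491%. With compound 1 they were 55.3%, 26.5% and 2.16%, and with a6 57.2%, 26.0% and 0.883%. The share of PSMB10 was thus lower than in Ctrl with every compound, and that of PSMB8 higher, both by the least with compound 1. With SAHA, PSMB8 itself went from 1033 to 950 per kilobase and PSMB5 from 1963 to 1412. The higher share with SAHA thus came without a higher mean for PSMB8. The PSMB8 change did not pass the test, and its 95% interval ran from -0.71 to 0.47 on the log2 scale. PSMB5, PSMB6 and PSMB7 did not pass the test in any comparison; with SAHA the authors' deposited table gives them log2 fold changes of -0.48, -0.59 and -0.10. These shares have no error and were not tested.

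**Figure D4:**
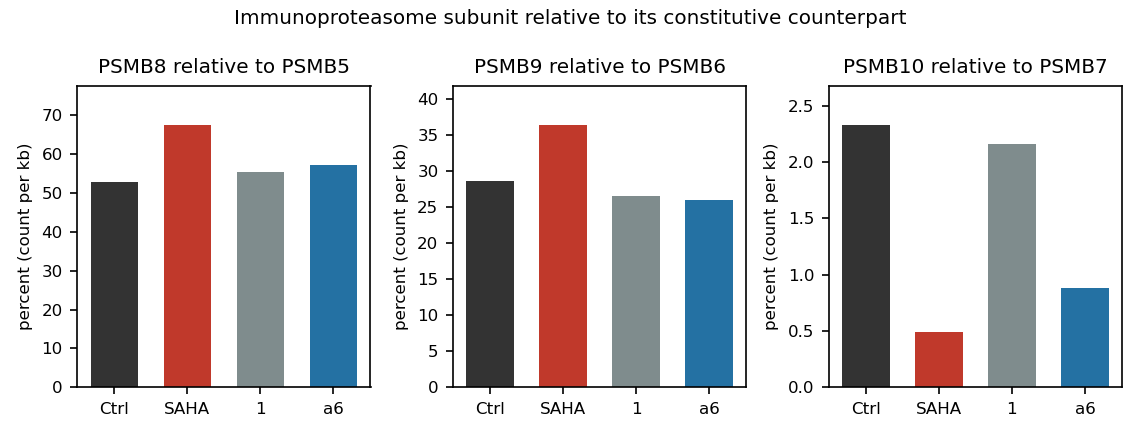
Mean normalized count per kilobase of each immunoproteasome subunit as a percent of its constitutive counterpart (bars from 0, with a separate scale in each panel and no error bars), in Ctrl of the SAHA table and with each compound. PSMB10 stands at 2.33% of PSMB7 in Ctrl, 0.491% with SAHA and 0.883% with a6.

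Among 20 measured regulators of class I transcription, 1 fell and 0 rose with SAHA. Of all genes, 3.02% were called lower and 4.53% higher with SAHA. The list's median log2 fold change was -0.34, against -0.01 over all genes and -0.06 over those averaging at least 50 normalized counts. The gene that fell was NLRC5, the class I transactivator, from a mean normalized count of 534 to 286. By the authors' deposited table its log2 fold change was -0.90 (standard error 0.30, DESeq2 Wald adjusted p = 0.0351). The call was lost after centring on the median, with an adjusted p of 0.0567, and after removal of the GC trend, with an adjusted p of 0.119. With a6 the NLRC5 value was -0.89 (standard error 0.28, DESeq2 Wald adjusted p = 0.148), and with compound 1 it was -0.34, both in the authors' deposited tables. IRF1, which carries the interferon response to class I genes, did not pass the test, with 0.07 with SAHA in the authors' deposited table. With compound 1 and a6, 0 regulators passed the DESeq2 test, of 21 and 19 measured, and 0 and 1 had an unadjusted p under 0.05. Of all genes, 0% and 0.583% passed, and 0.199% and 7.41% had such an unadjusted p.

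In the 13 genes of interferon receptors and JAK signalling, of which 12 were measured with SAHA, 1 fell and 0 rose. Of all genes, 3.02% were called lower and 4.53% higher with SAHA. An unadjusted p under 0.05 in the DESeq2 test was found for 2 of the 12, against 18.4% of all genes. The gene that fell was SOCS1, a feedback inhibitor of JAK kinases, at -1.99 (standard error 0.56, DESeq2 Wald adjusted p = 0.00936) in the authors' deposited table. Its value with a6 was -1.34 with an adjusted p of 0.417, and it was -0.11 with compound 1, both in the authors' deposited DESeq2 tables. With compound 1 and a6, 0 genes of this list passed the DESeq2 test, of 13 and 11 measured, against 0% and 0.583% of all genes.

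The rest of the peptide supply, from the proteasome to the loading complex, gave no calls in any comparison. In the DESeq2 tests, 0 of 18 genes of peptide loading and trimming passed with SAHA, compound 1 or a6, and 3, 0 and 2 had an unadjusted p under 0.05. Of all genes, 7.55%, 0% and 0.583% passed, and 18.4%, 0.199% and 7.41% had such an unadjusted p. TAPBP, the tapasin that bridges TAP and the heavy chain, had -0.75 with SAHA (standard error 0.27, DESeq2 Wald adjusted p = 0.0574) and -0.44 with a6 in the authors' deposited tables. Of the 14 genes of the 20S core with its constitutive catalytic subunits (13 measured with a6), 0 passed and 1, 0 and 0 had an unadjusted p under 0.05 in the DESeq2 tests. For the 10 proteasome activators and assembly factors and the 21 subunits of the 19S particle, 0 passed and 0 had an unadjusted p under 0.05 in each DESeq2 comparison. Median log2 fold changes of these 4 lists with SAHA ran from -0.19 to -0.07. The median was -0.01 over all genes and -0.06 over genes averaging at least 50 normalized counts.

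**Figure D5:**
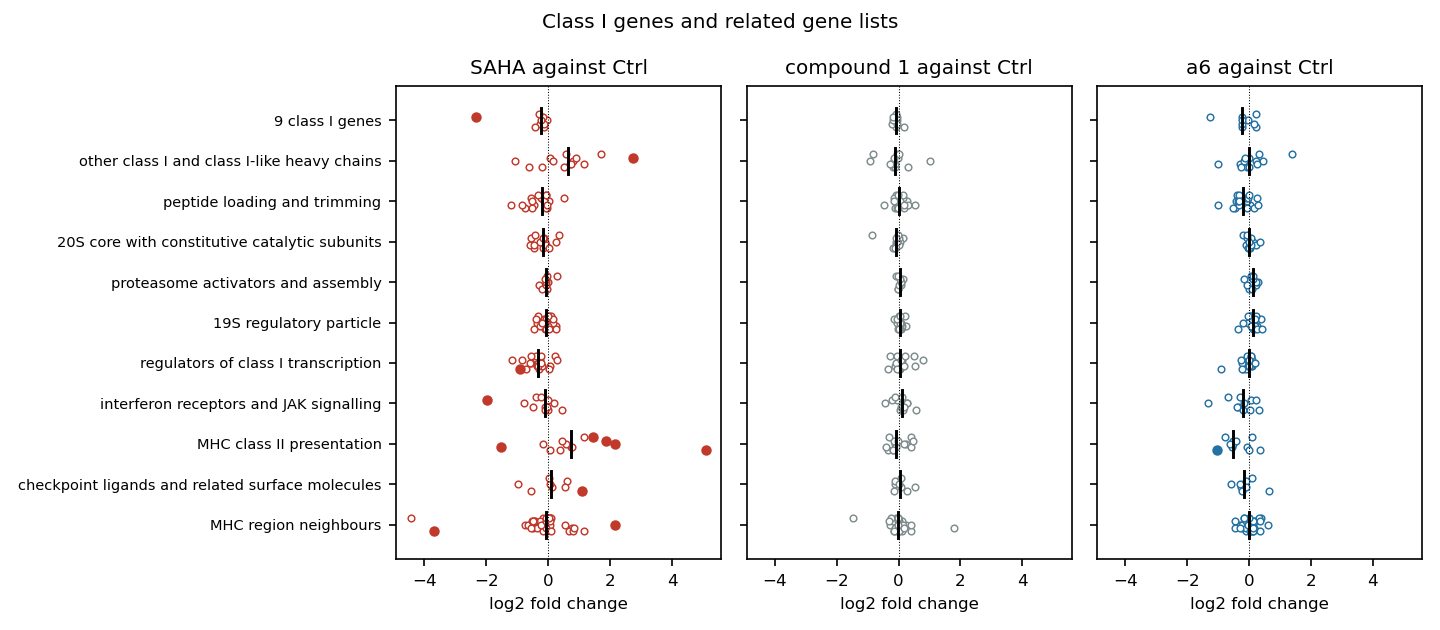
Log2 fold change against Ctrl in the authors' deposited tables for the 9 class I genes and 10 related lists; each circle is a gene, filled where the adjusted p is under 0.05, and the black bar is the list's median. With SAHA the proteasome lists cluster around 0 without a filled circle, while the class II list has 5.

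Among the remaining heavy chains and the class II presentation genes, calls with SAHA were mostly upward, and the 1 call with a6 was downward. Of 14 measured other class I and class I-like heavy chains, 1 rose and 0 fell with SAHA. Of all genes, 4.53% were called higher and 3.02% lower. Among these heavy chains 11 log2 fold changes were above 0, with a median of 0.64. An unadjusted p under 0.05 in the DESeq2 test was found for 7, against 18.4% of all genes. The gene that rose was AZGP1, a secreted class I-like protein, from a mean normalized count of 11.3 to 75.4 (log2 fold change 2.74, standard error 0.52, DESeq2 Wald adjusted p = 1.29e-05, in the authors' deposited table). Of 13 measured class II genes, 4 rose and 1 fell with SAHA, 11 were above 0, and the median was 0.73. Among them 6 had an unadjusted p under 0.05 in the DESeq2 test, against 18.4% of all genes. HLA-DMB and HLA-DOA, which control class II peptide loading, rose by 2.17 and 1.87 on the log2 scale in the authors' deposited table. The other two, HLA-DPB1 and HLA-DQB1, were named after their values were seen. HLA-DPB1 rose by 1.44 in the authors' deposited table, and HLA-DQB1 rose from 0.380 to 13.1 mean normalized counts, a Ctrl level too low for a fold change. CTSS, the protease that trims the class II invariant chain, fell by 1.52 in the same deposited table of the authors. With a6, HLA-DRA fell by 1.04 (standard error 0.27, DESeq2 Wald adjusted p = 0.0299) in the authors' deposited table. It was the only class II gene called of 11 measured, against 0.583% of all genes. It was also the only gene called with a6 among the 10 related lists, and with compound 1 the DESeq2 test called 0 of their genes, none with an unadjusted p under 0.05. HLA-DRA with SAHA was at 0.39 (DESeq2 Wald adjusted p = 0.566). The differences, a6 minus SAHA, were -1.43 for HLA-DRA, -2.23 for HLA-DMB and -2.47 for HLA-DOA. None of these passed the z test, with Benjamini-Hochberg adjusted p of 0.0968, 0.0680 and 0.0996.

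Among checkpoint ligands, CD274 (PD-L1) rose by 1.08 with SAHA in the authors' deposited table (standard error 0.32, DESeq2 Wald adjusted p = 0.0148), the 1 gene called of 8 measured. Of all genes, 7.55% were called with SAHA, 4.53% higher and 3.02% lower. Of 35 measured neighbours in the MHC region, 1 rose and 1 fell with SAHA: HLA-DMB, above, and LTB, a TNF-family cytokine, at -3.69 in the authors' deposited table. Their median was -0.08. The genes around PSMB10 on chromosome 16 were read in the same way. Of 11 measured neighbours within 100 kb, 0 passed the DESeq2 test with SAHA, against 7.55% of all genes. The number with an unadjusted p under 0.05 was 1, against 18.4% of all genes. The lowest of the 11 neighbours was AC040162.1, which overlaps PSMB10 on the same strand. It stood at -2.74 on an average of 3.37 normalized counts in the authors' deposited table. That neighbourhood was examined after the PSMB10 values were seen.

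The genes most like PSMB10 over the 3 log2 fold changes were sought among 10524 genes. These averaged 50 or more normalized counts in every table and had no LINC, antisense, small RNA or clone-type name. Among the 5 closest by Euclidean distance were the noncoding RNA DGCR5 at 0.179, the histone gene H2BC11 at 0.180, the retinal reductase DHRS3 at 0.192 and TESMIN at 0.195. DHRS3 had log2 fold changes of -2.51 with SAHA, -0.21 with compound 1 and -1.36 with a6 in the authors' deposited tables, and its a6 value passed the DESeq2 test with an adjusted p of 0.0106. H2BC11 passed that test with a6 as well, at -1.43 with an adjusted p of 0.0316. DGCR5 and TESMIN did not, with adjusted p of 0.205 and 0.388. The 3 comparisons share Ctrl, so the likeness is over 3 values that are not independent.

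Markers of other cell types were measured beside these results. Of 8 fibroblast and endothelial markers, 5 had a value with SAHA. Among those, 3 rose, LUM, VWF and KDR, against 4.53% of all genes called higher. The list's summed mean normalized count was 436 in Ctrl and 672 with SAHA. PDGFRB, which did not pass the DESeq2 test, held most of that sum, with 389 in Ctrl and 468 with SAHA. In Ctrl LUM was at 0.378, VWF at 1.41 and KDR at 41.7 mean normalized counts. Of 12 haematopoietic markers, 3 had a value with SAHA and 0 passed the DESeq2 test. An unadjusted p under 0.05 was found for 1, against 18.4% of all genes. The summed mean count of the haematopoietic markers was 87.1 in Ctrl and 62.8 with SAHA. CSF1R held most of that sum, with 74.1 in Ctrl and 57.9 with SAHA. With a6, CSF1R was the 1 haematopoietic marker with a value, at 72.4 in Ctrl and 31.6 in treated cells. Its unadjusted p there was 0.00309 and its adjusted p 0.207 in the DESeq2 Wald test. The part of these markers in the results for the 9 genes was not tested.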

How the data were processed

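RNA-seq was made from MDA-MB-231 cells in 4 groups of 3 libraries (12 in all). Trimming with cutadapt, testing with DESeq2 and the build GRCh38 (hg38) are named in the submitters' processing notes. Aligner, counter, strand setting and versions: not given in the sources used here. Per the file headers, each of the authors' 3 comparison tables holds, for every gene, the normalized count averaged over both groups (a signal), the log2 fold change and its error, the Wald score, and the p-value before and after adjustment. They have 0 columns with values of single libraries, so depth per library is unknown. The labels call the libraries biological replicates without naming separate cultures, so p-values measure only the spread between these samples, which may be technical.

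For each compound, calls are those of the authors' DESeq2 Wald test, as deposited, with the adjusted p below 0.05. Group means follow from the average count and the fold change when groups are equal in size, and 95% intervals from the standard errors under a normal distribution. Pairs of compounds were compared by the difference of log2 fold changes by z test (two-sided), with Benjamini-Hochberg adjustment over all genes of both tables, tested on simulated data. Levels per kilobase use GENCODE 29 principal transcripts, and promoter windows are RefSeq's. Python 3.11.15, pandas 2.3.3, scipy 1.17.1 and statsmodels 0.14.6 were used. Named genes are the 9, PSMB5, PSMB6, PSMB7, NLRC5, IRF1, TAPBP, up to 2 rising and 2 falling genes per list, the 5 genes nearest to PSMB10, and markers; a few that the rule covers are not reported here. The 9 genes and the 14 lists were chosen with earlier results of these data known. As alternatives, an adjusted p under 0.01, a 2-fold limit, a mean count of at least 10, adjustment over all rows, centring, removal of a lowess trend on GC content (share 0.3), the authors' lists, an error correlation of 0.5 and adjustment over all 3 pairs were tried.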

Additional observations from a re-analysis of the deposited data

How the results depend on the processing

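PSMB10 kept its direction under every alternative run: its log2 fold change ran from -2.34 to -2.16 with SAHA, with an adjusted p of at most 1.06e-05, and from -1.27 to -1.23 with a6, where only the authors' lists call it. Its difference between SAHA and compound 1 ran from -2.16 to -2.08, with an adjusted p of at most 0.0141. Its differences between a6 and SAHA and between a6 and compound 1 were not called under any alternative. Their smallest adjusted p in the z test, with an error correlation of 0.5, was 0.105 for a6 minus SAHA and 0.235 for a6 minus compound 1. The count of the 9 genes called with a6 was 1 by the authors' lists in place of 0. For the related lists with a6, 0 genes were called at an adjusted p under 0.01 and 2 by the authors' lists, in place of 1. The NLRC5 call with SAHA was also lost at an adjusted p under 0.01, and at a 2-fold limit and by the authors' lists, both of which need a 2-fold change. At an adjusted p under 0.01, CD274 and HLA-DQB1 were no longer called with SAHA either (DESeq2 Wald adjusted p of 0.0148 and 0.0110). The related lists then had 7 genes called with SAHA in place of 10. Values near 0 changed sign, and none of them passed the test either way. With SAHA, HLA-E was at 0.0382 after centring and 0.0775 after removal of the GC trend, and HLA-B at 0.0454 after the latter. Centring turned the differences of PSMB9 to -0.000447 (a6 minus SAHA), 0.0129 (a6 minus compound 1) and 0.0133 (SAHA minus compound 1), those of HLA-C to 0.0245 (a6 minus compound 1) and 0.0181 (SAHA minus compound 1), and that of HLA-B to 0.0490 (SAHA minus compound 1). No paired analysis was possible because the values used hold no columns per library, and leaving out a replicate was not run for the same reason. Group means without depth per library limit how small a change can be seen, to the intervals given.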
